A study of Mus musculus with 12 samples.

Results

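Fatty acid oxidation in the mouse liver was described through 37 genes of its mitochondrial and peroxisomal branches, among 18560 genes in the deposited table. The members were chosen by gene symbol from what their products are known to do. The rule itself uses no measured value, but the choice was made with earlier results of these data known. They were read as 19 mitochondrial members, 14 peroxisomal members and 4 members whose product is found in more than 1 compartment or in the cytosol (Acad11, Eci2, Crat and Acot1). Livers of mice aged 12 months were sequenced in 12 libraries, 3 in each of 4 groups: wild-type males, OXR1A-/- males, wild-type females and OXR1A-/- females. The OXR1A-/- animals, called knockout here, lack OXR1A, a product of the oxidation resistance gene Oxr1. The study's title places its interest in fatty liver and lipid metabolism of the males. The labels give neither the strain nor whether the 3 samples of a group are separate animals, so the p-values cover variation among the sequenced samples only, part of which may be technical. The unit is FPKM, which divides the fragments of a gene by its length and by the mapped total of the library, so levels of different genes can be compared per length.

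Fatty acids enter mitochondria as carnitine esters and are shortened there by repeated cycles of dehydrogenation, hydration, a second dehydrogenation and thiolytic cleavage, with the electrons passed to the respiratory chain. Peroxisomes take up very long and branched chains, bile acid precursors and dicarboxylic acids, shorten them with enzymes of their own, and export the products as carnitine or free acyl groups. In the liver many genes of both branches are known targets of the nuclear receptor PPARα, which pairs with RXR on direct repeats of the half-site AGGTCA.

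The 250 bases before the start of transcription are shown for Hadhb and for 4 members called higher in knockout males. These 4 are the called members with an entry in the RefSeq promoter table (build GRCm38.p6). Hadhb and its neighbour Hadha, whose window is not printed, code for both subunits of the mitochondrial trifunctional protein. Hadha and Hadhb face away from each other on chromosome 5 with 272 bases between them, so that the Hadhb window covers most of the space between them. Capitals mark matches on either strand to 3 short motifs. These are the nuclear receptor half-site with the letters AGGTCA, the box named for its letters CCAAT, and the GC box. The GC box reads GGGCGG on its own strand and CCGCCC on the other. Each sequence runs 5′ to 3′ toward its gene.

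Acadl, chr1:66863310-66863559, minus strand: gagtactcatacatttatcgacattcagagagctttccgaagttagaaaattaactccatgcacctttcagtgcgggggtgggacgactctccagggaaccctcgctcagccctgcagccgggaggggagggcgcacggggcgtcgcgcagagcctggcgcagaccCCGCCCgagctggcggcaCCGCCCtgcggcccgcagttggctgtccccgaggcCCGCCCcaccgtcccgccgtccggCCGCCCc
Acadm, chr3:153944644-153944893, minus strand: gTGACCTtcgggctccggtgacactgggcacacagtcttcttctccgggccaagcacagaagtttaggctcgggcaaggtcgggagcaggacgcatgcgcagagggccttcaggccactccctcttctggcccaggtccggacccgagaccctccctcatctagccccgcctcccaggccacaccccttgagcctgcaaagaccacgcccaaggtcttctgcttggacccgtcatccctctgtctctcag
Etfdh, chr3:79628768-79629017, minus strand: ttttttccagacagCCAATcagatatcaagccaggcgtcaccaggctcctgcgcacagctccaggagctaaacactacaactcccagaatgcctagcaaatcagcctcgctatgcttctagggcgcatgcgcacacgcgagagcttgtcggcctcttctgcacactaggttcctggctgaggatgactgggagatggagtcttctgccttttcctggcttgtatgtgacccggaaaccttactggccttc
Pex11a, chr7:79743132-79743381, minus strand: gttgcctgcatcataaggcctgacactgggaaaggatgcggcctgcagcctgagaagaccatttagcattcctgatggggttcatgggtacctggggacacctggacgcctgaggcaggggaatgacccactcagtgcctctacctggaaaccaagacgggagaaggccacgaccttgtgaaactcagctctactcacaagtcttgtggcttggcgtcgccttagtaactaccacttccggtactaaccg
Hadhb, chr5:30155003-30155252, plus strand: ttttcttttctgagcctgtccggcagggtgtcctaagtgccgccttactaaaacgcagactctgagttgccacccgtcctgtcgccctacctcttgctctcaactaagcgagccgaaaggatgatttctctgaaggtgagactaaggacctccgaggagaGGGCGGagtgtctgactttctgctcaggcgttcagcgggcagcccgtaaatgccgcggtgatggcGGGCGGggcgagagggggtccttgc

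The Acadl window held 4 GC boxes, the Hadhb window 2, the Etfdh window 1 CCAAT box and the Acadm window 1 half-site on the opposite strand. None of the searched letters was in the Pex11a window. Over all 32 members with an entry (35 windows), GC boxes stood in 22 windows, CCAAT boxes in 16 and half-sites in 5 (Acadm, Acadvl, Cpt1a, Echs1 and Scp2). Of 32851 RefSeq windows of the same length, 32.7% held a GC box, 33.8% a CCAAT box and 14% a half-site. The full direct repeat AGGTCANAGGTCA was in 0 member windows and in 0.0335% of all windows, and its looser form AGGNCANAGGNCA was in 0 and 0.338%. The extended half-site TNAAGGTCA, which can overlap the plain half-site, was in 0 member windows and in 1.14% of all. These matches describe letters in a window, and a lack of them says only that these letters are not in it.

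All 37 members passed the filter on low values (at least 1 FPKM in at least 3 libraries), as did 11514 genes in all. Differences below are between group means of log2(FPKM + 1), tested with limma and called at a Benjamini-Hochberg adjusted p under 0.05 over all tested genes. Summed FPKM ran from 526203 to 667434 per library and relative depth, recovered from the steps of low values, from 0.99 to 1.49. Absolute depth is unknown. Gene-level Oxr1 was at 12.1 to 23.3 FPKM in wild-type males and 22.1 to 25 FPKM in knockout males, and at 17.4 to 20.7 and 19.7 to 21.0 FPKM in wild-type and knockout females. This value sums the products of the gene and does not check the loss of OXR1A. The 10 hepatocyte markers were detected in every library, at 54298 to 72087 FPKM in sum. Wild-type male 2 stood apart: it was the deepest library and poorest in long transcripts, where the deviation of a gene fell with log2 length at a slope of -0.153 (other libraries -0.064 to 0.082). It held the lowest of the 12 values for 10 of the 37 members and the highest for 6. Traces of transcripts of the other sex were seen in 3 libraries (knockout male 3, wild-type female 1 and knockout female 1).

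By level, the peroxisomal genes Scp2 and Phyh stood first, at a mean of 1183 and 1098 FPKM over the 12 libraries, followed by Acaa1b at 534 FPKM and the mitochondrial thiolase Acaa2 at 434 FPKM. Acot8 was lowest at 8.04 FPKM. Per library, the 19 mitochondrial members summed to 2683 to 2877 FPKM in wild-type males, 3030.0 to 3399 FPKM in knockout males, 2896 to 3092 FPKM in wild-type females and 2733 to 3284 FPKM in knockout females. All knockout males lay above all wild-type males in this sum, while both female groups overlapped. The 14 peroxisomal members summed to 4355 to 4857 FPKM in wild-type males, 4302 to 5272 FPKM in knockout males, 3207 to 3570.2 FPKM in wild-type females and 3181 to 4030.0 FPKM in knockout females. In this sum the genotypes overlapped within each sex, and every male library lay above every female library. Scp2 and Phyh together made up 57.7% to 64.3% of the peroxisomal sum in males and 42.8% to 52.1% in females. Without them the sums of the 4 groups overlapped, at 1639 to 1911, 1576 to 2047, 1566 to 2041 and 1636 to 1929 FPKM in the order above. All these sums, and the separations between groups in them, are stated for the deposited scale only. Median-ratio scaling, an alternative used below, divides libraries by factors from 0.758 (wild-type male 2) to 1.124 (knockout male 2).

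**Figure D1:**
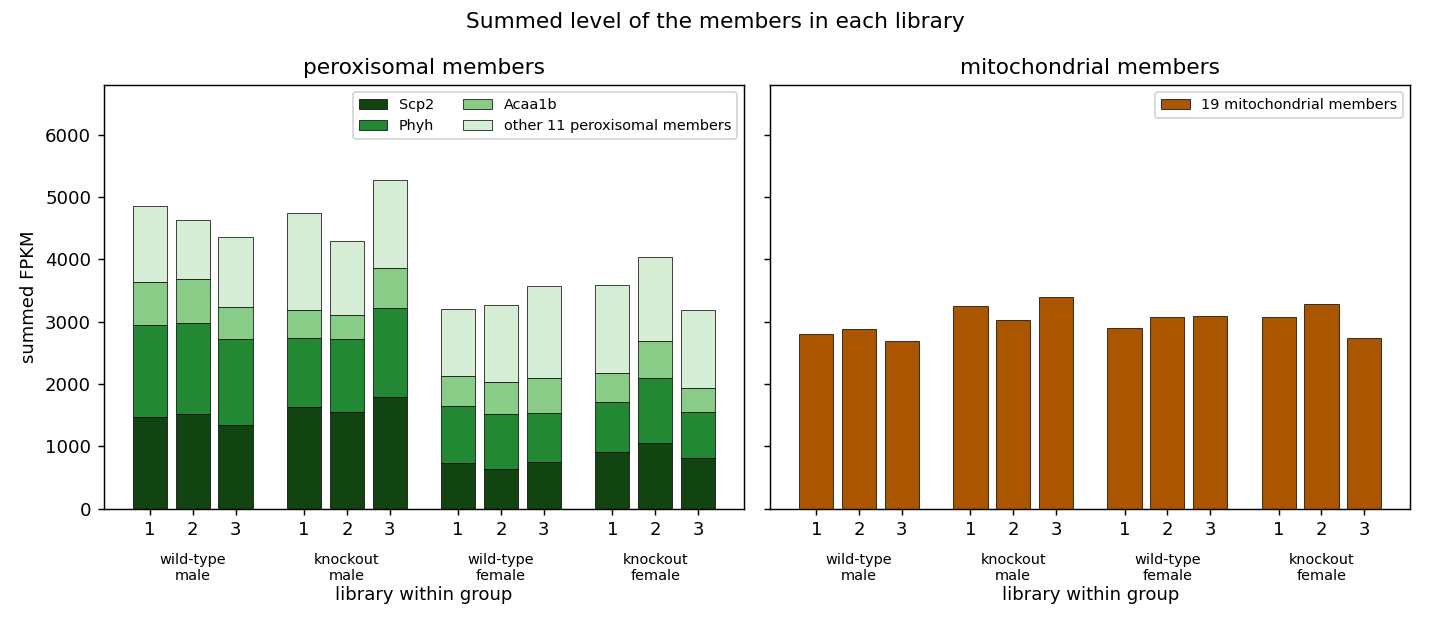
Summed FPKM of the 14 peroxisomal members (left, stacked bars split into Scp2, Phyh, Acaa1b and the other 11) and of the 19 mitochondrial members (right) in each of the 12 libraries, 3 per group. The taller peroxisomal bars of the males come from the Scp2 and Phyh segments. On the deposited scale the mitochondrial sums of knockout males lie between 3030.0 and 3399 FPKM, above the 2683 to 2877 FPKM of wild-type males.

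The first comparison asked how these genes differ between knockout and wild-type males. Of the 37 members 6 were called, all higher in knockout males, where 2.55% of all tested genes were called (245 higher and 49 lower). They were the mitochondrial Acadm, Acadl and Etfdh, the peroxisomal Abcd2 and Pex11a, and Crat. In 15 members the 3 knockout values all lay above the 3 wild-type values and in 0 they all lay below, against 21.2% and 2.49% of all tested genes. The median difference of the members was 0.21 on the log2 scale, with 29 positive. The median over all tested genes was 0.19, with 78.8% positive. Relative to that shift, 20 of the 37 members lay above the median of all genes. The 95% interval of 12 members did not include that median, counting both sides. Acadsb, Acaa1b and Phyh were among those with an interval wholly below it. The share of all genes with such an interval was not computed. Median-ratio scaling took the median of all genes to -0.001, that of the members to -0.04 with 16 positive, and the calls over all genes to 68 higher and 77 lower. That scaling moves all genes of a library alike, so the members' median followed the shift of all genes. Quantile normalization gave 61 higher and 79 lower, with a median of -0.01 for all genes. The median of the members was then 0.14 with 27 positive, so it stayed above that of all genes. The values below are those of the deposited scale.

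Among the genes of mitochondrial entry, none was called between knockout and wild-type males. Cpt1a, the outer membrane carnitine palmitoyltransferase that controls entry of long chains, was measured at 46.3, 33 and 55.8 FPKM in wild-type males, 90.3, 51.9 and 78.1 FPKM in knockout males, 74.2, 116 and 87.3 FPKM in wild-type females and 102, 63.6 and 50.3 FPKM in knockout females. The difference in males was 0.69 ± 0.29 (SE), adjusted p = 0.181 by limma, and knockout male 2 fell within the wild-type range. In females the same difference was -0.40 ± 0.29 (SE), with an adjusted p of 0.888 by limma. Slc25a20, the carnitine-acylcarnitine carrier of the inner membrane, read 40.9, 51.6 and 44.4 FPKM in wild-type males, 59.1, 51.9 and 74.1 FPKM in knockout males, 36.4, 46.2 and 53 FPKM in wild-type females and 49.3, 55.7 and 40.2 FPKM in knockout females. All knockout males lay above all wild-type males (the nearest pair being knockout male 2 and wild-type male 2), and limma gave 0.42 ± 0.18 (SE), adjusted p = 0.186. The inner carnitine palmitoyltransferase Cpt2 and the acyl-CoA synthetase Acsl1, which activates fatty acids before import, differed by 0.17 and 0.18 on the log2 scale, with overlapping groups.

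Of the acyl-CoA dehydrogenases, which open each cycle, those for medium and long chains were called. Acadm, the medium-chain enzyme (chromosome 3, 153922353 to 153944643 in GRCm38), was at 202, 188 and 186 FPKM in wild-type males, 298, 257 and 279 FPKM in knockout males, 201, 212 and 226 FPKM in wild-type females and 226, 237 and 189 FPKM in knockout females. The 3 knockout males were the 3 highest of the 12 libraries. The difference in males was 0.53 ± 0.12 (SE), a 1.45-fold higher mean, with adjusted p = 0.0408 by limma. Acadl, the long-chain enzyme (chromosome 1, 66830839 to 66863309), was at 116, 111 and 108 FPKM in wild-type males, 148, 148 and 158 FPKM in knockout males, 148, 158 and 159.8 FPKM in wild-type females and 159, 175 and 147 FPKM in knockout females. Wild-type males were the 3 lowest of the 12, and knockout males lay within the range of the females. Here the difference in males was 0.44 ± 0.10 (SE), adjusted p = 0.0463 by limma. The very-long-chain enzyme Acadvl (0.06, 95% interval -0.19 to 0.32), the short-chain enzyme Acads (0.08, -0.21 to 0.38) and Acadsb, which acts on short branched chains (-0.21, -0.53 to 0.11), were not called and their groups overlapped. Acadvl varied least of all members, 1.30-fold between its lowest and highest library.

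The later steps of the mitochondrial cycle were not called in males, although 3 of them were separated between the groups. Hadha, the trifunctional protein subunit with hydratase and hydroxyacyl-CoA dehydrogenase activity, was at 115, 102 and 107 FPKM in wild-type males, 154, 129.9 and 146 FPKM in knockout males, 118, 126 and 126 FPKM in wild-type females and 128, 129 and 125 FPKM in knockout females. Hadhb, its thiolase subunit, was at 88.1, 74.7 and 78.3 FPKM in wild-type males, 109, 109 and 125 FPKM in knockout males, 84.7, 99.5 and 115 FPKM in wild-type females and 97.8, 116 and 97.7 FPKM in knockout females. In both genes every knockout male exceeded every wild-type male, with differences of 0.41 ± 0.10 (SE) and 0.50 ± 0.13 (SE) and limma adjusted p-values of 0.0535 and 0.0636. The Hadhb window printed above lies between these 2 genes. Hadh, the short-chain hydroxyacyl-CoA dehydrogenase, was at 182, 198 and 183 FPKM in wild-type males, 249, 258 and 233 FPKM in knockout males, 244, 248 and 238 FPKM in wild-type females and 239, 265 and 226 FPKM in knockout females. As with Acadl, the wild-type males were the 3 lowest libraries, and the difference in males was 0.39 ± 0.10 (SE), adjusted p = 0.0583 by limma. The hydratase Echs1 (0.21) and the thiolase Acaa2 (-0.09) had overlapping groups. Of the auxiliary enzymes for unsaturated chains, the dienoyl-CoA reductase Decr1 was higher in each knockout male than in each wild-type male (0.48 ± 0.15 (SE), adjusted p = 0.0977 by limma), and the isomerase Eci1 overlapped (0.26).

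Electrons of the acyl-CoA dehydrogenases pass through the flavoprotein of Etfa and Etfb to the membrane enzyme of Etfdh. Etfdh (chromosome 3, 79603788 to 79628767) was at 116, 99.1 and 114 FPKM in wild-type males, 163, 157 and 174 FPKM in knockout males, 119.5, 136 and 149 FPKM in wild-type females and 165, 158 and 148 FPKM in knockout females. Wild-type males were the 3 lowest of the 12 libraries, and knockout males lay among the highest with the knockout females. The difference in males was 0.59 ± 0.11 (SE), adjusted p = 0.0276 by limma, the smallest of the mitochondrial members. Etfa (0.14, 95% interval -0.12 to 0.40) and Etfb (-0.13, -0.53 to 0.26) overlapped between the groups.

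**Figure D2:**
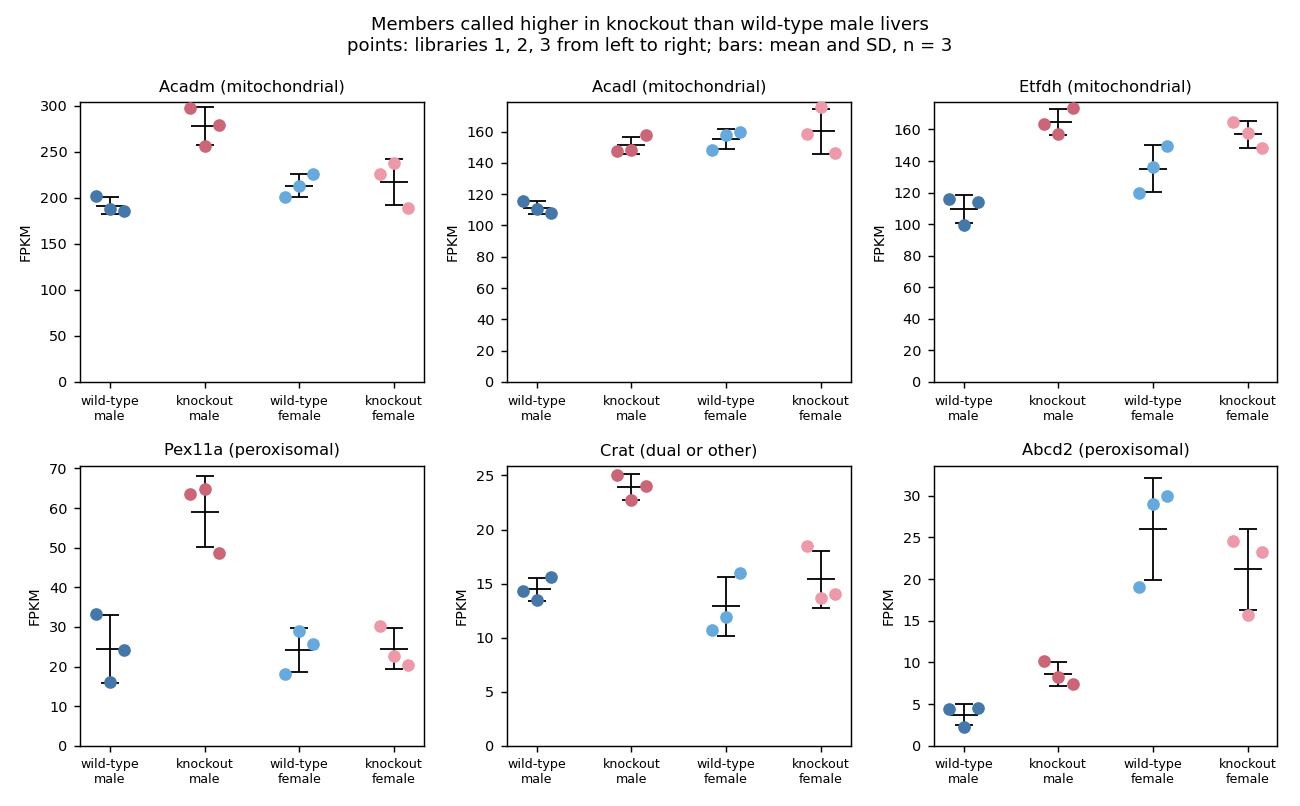
FPKM (vertical axis, from 0) of the 6 members called higher in knockout than in wild-type males, with 1 point per library and bars for the mean and SD of the 3 libraries of each group. In all 6 panels the 3 knockout males lie above the 3 wild-type males, and for Abcd2 both female groups lie higher still, at 15.6 to 30.0 FPKM.

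In the peroxisomal branch, 2 of 14 members were called in males. Pex11a, a membrane protein of peroxisome division (chromosome 7, 79735957 to 79743131), was at 33.2, 16.1 and 24.2 FPKM in wild-type males, 63.6, 64.8 and 48.7 FPKM in knockout males, 18.1, 28.9 and 25.8 FPKM in wild-type females and 30.3, 22.7 and 20.5 FPKM in knockout females. The 3 knockout males were the 3 highest libraries, and the other 9 ranged from 16.1 to 33.2 FPKM. The difference in males was 1.28 ± 0.25 (SE), adjusted p = 0.0283 by limma. Abcd2, a peroxisomal transporter of very-long-chain acyl-CoA (chromosome 15, 91145871 to 91192007), was at 4.46, 2.28 and 4.5 FPKM in wild-type males, 10.2, 8.20 and 7.44 FPKM in knockout males, 19, 29 and 30.0 FPKM in wild-type females and 24.6, 15.6 and 23.3 FPKM in knockout females. Each knockout male lay above each wild-type male and below each female. Its difference in males was 1.05 ± 0.25 (SE), adjusted p = 0.0484 by limma, on a scale that understates changes of low values.

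The other transporter, Abcd3, differed by -0.004 (95% interval -0.39 to 0.39). Of the peroxisomal oxidation enzymes, Hsd17b4, the bifunctional protein for branched chains and bile acid precursors, was at 187, 143 and 162 FPKM in wild-type males, 239, 213 and 194 FPKM in knockout males, 139.9, 151 and 136 FPKM in wild-type females and 151, 145 and 144 FPKM in knockout females. Knockout males were the 3 highest libraries, with a difference of 0.39 ± 0.12 (SE) and adjusted p = 0.0946 by limma. Ehhadh, the other bifunctional protein, differed by 0.01 (-0.39 to 0.42), and the branched-chain oxidase Acox2 by 0.13 (-0.21 to 0.48). The thiolase Acaa1b had the lowest difference of the 37 members, -0.42 (-0.88 to 0.04), with overlapping groups. Its near-identical copy Acaa1a, whose coding sequence matched at 96.5% of 1272 bases, had 0.21, and reads may be split between both. Scp2, which codes for a thiolase and a sterol carrier protein, and the dienoyl-CoA reductase Decr2 were higher in each knockout male than in each wild-type male but were not called (0.19 and 0.18).

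Of the enzymes that release products from peroxisomes, the thioesterase Acot8 was at 5.25, 6.38 and 6.86 FPKM in wild-type and 8.42, 9.53 and 10.2 FPKM in knockout males, without overlap (0.54 ± 0.13 (SE), adjusted p = 0.0514 by limma). Crot, the carnitine octanoyltransferase, was at 285, 169 and 209 FPKM in wild-type and 521, 242 and 437 FPKM in knockout males. Its groups overlapped through knockout male 2, and the difference was 0.82 ± 0.34 (SE), adjusted p = 0.177 by limma. Both genes of alpha-oxidation, the removal of 1 carbon from branched chains, had negative values: the hydroxylase Phyh -0.21 (-0.54 to 0.12) and the lyase Hacl1 -0.02 (-0.41 to 0.37). Crat, the carnitine acetyltransferase of mitochondria and peroxisomes (chromosome 2, 30400476 to 30416017), was at 14.3, 13.4 and 15.6 FPKM in wild-type males, 25.1, 22.7 and 24 FPKM in knockout males, 10.8, 11.9 and 16 FPKM in wild-type females and 18.5, 13.7 and 14.1 FPKM in knockout females. The 3 knockout males were the 3 highest libraries, and the difference was 0.69 ± 0.15 (SE), adjusted p = 0.0448 by limma. Acad11, an acyl-CoA dehydrogenase reported from both organelles, was at 114, 71.5 and 103 FPKM in wild-type males, 121, 109 and 99.6 FPKM in knockout males, 107, 128 and 113 FPKM in wild-type females and 112, 105 and 101 FPKM in knockout females, and overlapped between all 4 groups (0.21 in males). Acot1, a cytosolic thioesterase, was at 13.4, 18.7 and 11.7 FPKM in wild-type males, 14, 8.15 and 24.4 FPKM in knockout males, 7.29, 7.44 and 18.9 FPKM in wild-type females and 9.40, 24.5 and 11.2 FPKM in knockout females. It had the largest standard error of the members, 0.44, and differed by -0.01 (-0.98 to 0.96) in males. Its coding sequence matched that of Acot2 over 85.6% of an alignment, so its values are uncertain where reads were split. The isomerase Eci2 overlapped as well (0.13).

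The 6 calls in males were close to the threshold. Each of the 6 members was higher in knockout males in all 24 other fits that were run, and their calls were mostly not kept. Over the 12 fits that each left out 1 library, Etfdh and Pex11a were called in 8, Crat in 2, Acadm and Abcd2 in 1 and Acadl in 0. The count was 0 on leaving out either of wild-type males 2 and 3, or either of knockout males 1 and 2, and 2 or 3 on leaving out any 1 of the other 8 libraries. When the 3 libraries holding transcripts of the other sex were left out 1 member was called, and 1 when the 3 libraries poorest in long transcripts were. A pseudocount of 0.1 gave 8 calls, with Hadha and Acot8 added, and a filter at a mean of 5 FPKM gave 9, with Hadha, Hadh and Acot8 added. Median-ratio scaling left Pex11a, and quantile normalization and the fit of the 2 male groups alone left 0.

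**Figure D3:**
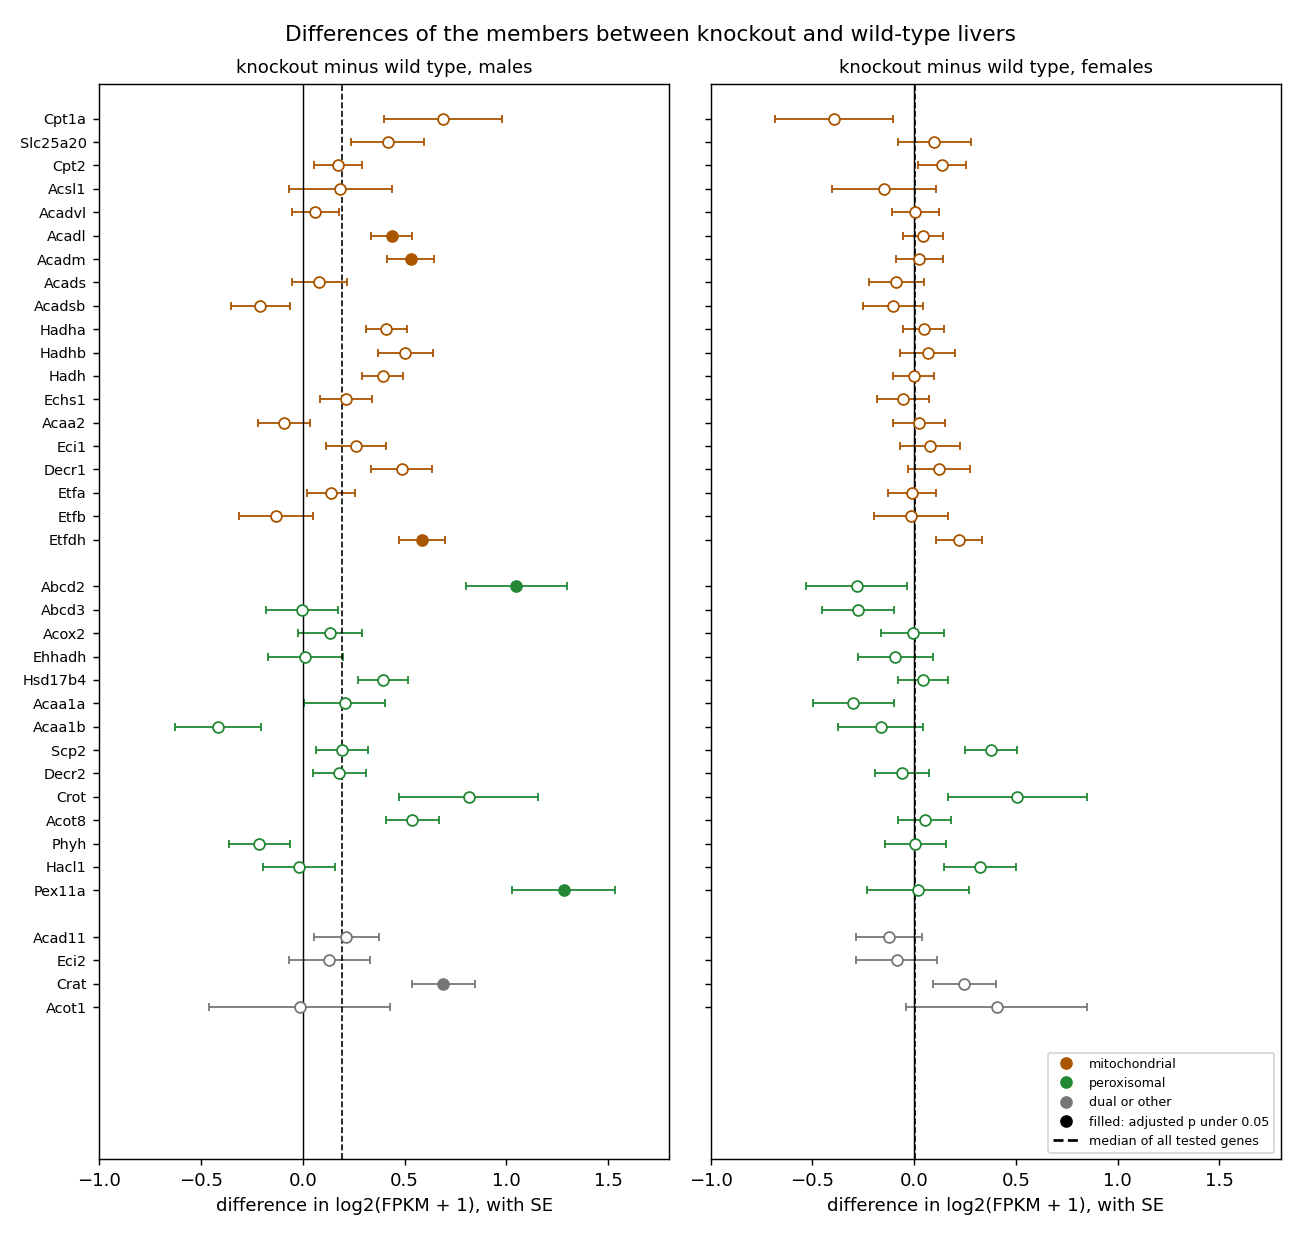
Difference in log2(FPKM + 1) between knockout and wild type (horizontal axis, with standard error) for all 37 members, in males (left) and females (right), with filled points for members with an adjusted p under 0.05. The dashed line is the median of all tested genes, 0.19 in males and 0.00 in females. In males 29 members lie above 0 and 6 are filled, and in females 20 lie above 0 and 0 are filled.

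Markers of some other liver cells differed in the male comparison too, where 2.55% of all tested genes were called. Between knockout and wild-type males 6 of 12 macrophage markers were called higher, and their summed level was 191 to 358 FPKM in wild-type and 400.3 to 954 FPKM in knockout males. Of 9 markers of sinusoidal endothelium 5 were called higher (72.5 to 82.7 against 112 to 127 FPKM), and of 9 stellate cell markers 1 was (149 to 162 against 207 to 305 FPKM). The sum of 10 hepatocyte markers was 61568 to 72087 FPKM in wild-type and 54298 to 57174 FPKM in knockout males, with 1 called higher. Of 4 tested cholangiocyte, 4 lymphocyte, 2 neutrophil, 1 fat cell and 4 red cell markers 0 were called. The 4 red cell markers were all negative (median -0.30). Of 10 periportal hepatocyte genes 1 was called lower and 8 were negative (median -0.39). Of 10 pericentral genes 1 was called higher and 1 lower. No marker in these lists was at 0 in every library. In bulk tissue a change in the number of cells of a type and in RNA per cell cannot be told apart, and the part of these cells in the results was not tested.

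In females, 0 of 37 members were called between knockout and wild type by limma, where 0.0174% of all genes were called, and 0 were called in any other fit that was run. At an unadjusted p under 0.05, 1 member passed (Scp2), against 6.13% of all tested genes. Scp2 was at 731, 642 and 753 FPKM in wild-type and 908, 1050.4 and 813 FPKM in knockout females. It was also the 1 member whose female groups did not overlap, with a difference of 0.38 ± 0.13 (SE) and adjusted p = 0.724 by limma. All genes gave 17.6% without overlap. The median of the members was 0.01 and that of all genes 0.00, with 20 members positive. Hacl1 stood at 169, 168 and 197 FPKM in wild-type males, 195, 142 and 194 FPKM in knockout males, 155, 174 and 238 FPKM in wild-type females and 228, 209 and 264 FPKM in knockout females, and had the second smallest p of the peroxisomal members in females (0.32 ± 0.18 (SE), adjusted p = 0.838 by limma). Among mitochondrial members Etfdh came first (0.22 ± 0.11 (SE), adjusted p = 0.833 by limma). The 95% interval in females was -0.23 to 0.28 for Acadm, -0.09 to 0.58 for Crat and -0.53 to 0.57 for Pex11a. The differences of these genes in males, 0.53, 0.69 and 1.28, lie above those intervals. The male values have errors of their own and the genes were picked by their calls in males, so this is no test between the sexes.

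The difference between the knockout effects of the sexes was tested directly. By limma, 0 of 37 members were called and 0.0261% of all genes were. At an unadjusted p under 0.05, 10 members passed, all with a larger value in males, against 9.03% of all genes, and 0 were called in the other fits. The 2 peroxisomal members with the smallest p were Abcd2 (1.33 ± 0.35 (SE), adjusted p = 0.408 by limma) and Pex11a (1.26 ± 0.36 (SE), adjusted p = 0.433 by limma). Acadm (0.51 ± 0.16 (SE)) and Acadl (0.39 ± 0.14 (SE)) followed in mitochondria, with adjusted p = 0.504 and 0.54 by limma. The median of the members was 0.27 and that of all genes 0.20, and median-ratio scaling took both to 0.00 and -0.01. Quantile normalization gave a median of 0.23 for the members, with 29 positive, and -0.01 for all genes. For no member did the difference between the sexes in the response to the knockout pass the test.

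The comparison of males with females in the wild type called 9 members, 2 higher and 7 lower in males, where 13.4% of all genes were called (266 higher and 1273 lower). It shares its wild-type males with the first comparison, so both lean on the same 3 libraries. Scp2 (chromosome 4, 108043830 to 108144971) was at 1475, 1512 and 1346 FPKM in wild-type males and 1626, 1543 and 1792 FPKM in knockout males, above all 6 female values given above. The difference between wild-type males and females was 1.03 ± 0.13 (SE), adjusted p = 0.000453 by limma. Phyh, the first enzyme of alpha-oxidation (chromosome 2, 4918996 to 4938743), was at 1471, 1461 and 1369.8 FPKM in wild-type males, 1113, 1183 and 1432 FPKM in knockout males, 910.4, 869.5 and 776 FPKM in wild-type females and 809, 1050.3 and 732 FPKM in knockout females. All males lay above all females, and the difference in the wild type was 0.75 ± 0.15 (SE), adjusted p = 0.00867 by limma. Abcd2 was lower in males by the largest amount of any member (-2.52 ± 0.25 (SE), adjusted p = 7.09e-05 by limma), with the values given above. These 3 members were called in every one of the 24 other fits.

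Also lower in wild-type males was Ehhadh, which was at 119, 73.5 and 122 FPKM in wild-type males, 99.7, 103 and 107 FPKM in knockout males, 156, 169 and 215 FPKM in wild-type females and 179.6, 163 and 159 FPKM in knockout females. Each male library lay below each female library in this gene, with -0.80 ± 0.18 (SE) and adjusted p = 0.0175 by limma in the wild type. The ratio of Ehhadh to Hsd17b4, the 2 bifunctional proteins, does not change when a library is scaled by 1 factor. It was 0.418 to 0.753 in the 6 male and 1.10 to 1.59 in the 6 female libraries. Decr2 was at 88.3, 87.8 and 86.5 FPKM in wild-type males, 89.3, 96.4 and 113 FPKM in knockout males, 116, 129 and 133 FPKM in wild-type females and 138, 125 and 102 FPKM in knockout females. Wild-type males were lower than either female group, with a difference of -0.52 ± 0.13 (SE) from wild-type females, adjusted p = 0.0251 by limma.

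In mitochondria, Cpt1a was lower in wild-type males than in wild-type females (-1.03 ± 0.29 (SE), adjusted p = 0.0388 by limma), as were Acadl (-0.47 ± 0.10 (SE), adjusted p = 0.0111 by limma) and Hadh (-0.37 ± 0.10 (SE), adjusted p = 0.0322 by limma). Echs1, the short-chain hydratase, was at 119, 139.9 and 128 FPKM in wild-type males, 139.8, 175 and 136 FPKM in knockout males, 189, 176 and 159.8 FPKM in wild-type females and 174, 177 and 155 FPKM in knockout females. The wild-type male and female values did not overlap, and the difference was -0.44 ± 0.13 (SE), adjusted p = 0.043 by limma. In 3 members males lay wholly above females and in 11 wholly below, against 6.04% and 34.1% of all genes. The median of the members was -0.11, with 14 positive, and that of all genes -0.21. With median-ratio scaling the median of the members was 0.19, with 29 positive, and 618 genes were called higher and 456 lower in males. Under that scaling Scp2, Phyh and Hsd17b4 were called higher and Abcd2 lower, and the calls of Cpt1a, Acadl, Hadh, Echs1, Ehhadh and Decr2 were lost. Quantile normalization kept Acadl, Hadh and Abcd2 as lower and Scp2 and Phyh as higher, with 586 genes higher and 499 lower. The median was then -0.05 for the members, with 16 positive, and 0.01 for all genes. On leaving out 1 library the count of members called ranged from 4 to 9, with 4 without wild-type female 2 and 4 without wild-type female 3. In these 12 fits Acadl and Ehhadh were called in 11, Decr2 in 9, Hadh in 7, Cpt1a in 6 and Echs1 in 4, and the count was 3 when the libraries holding transcripts of the other sex were left out. Markers of some other cells differed in this comparison too, where 13.4% of all tested genes were called (266 higher and 1273 lower in males). Of these markers 8 of 12 macrophage, 8 of 9 endothelial and 5 of 9 stellate ones were called lower in wild-type males. In the shorter lists 0 of 4 cholangiocyte, 1 of 4 lymphocyte and 1 of 2 neutrophil markers were called lower. The 1 tested fat cell marker and 1 of 4 red cell markers were called higher. Of 10 hepatocyte markers 2 were called lower. Of 10 periportal genes 1 was called higher and 1 lower, and of 10 pericentral genes 1 was called higher. The part of these cells in the comparison was not tested.

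**Figure D4:**
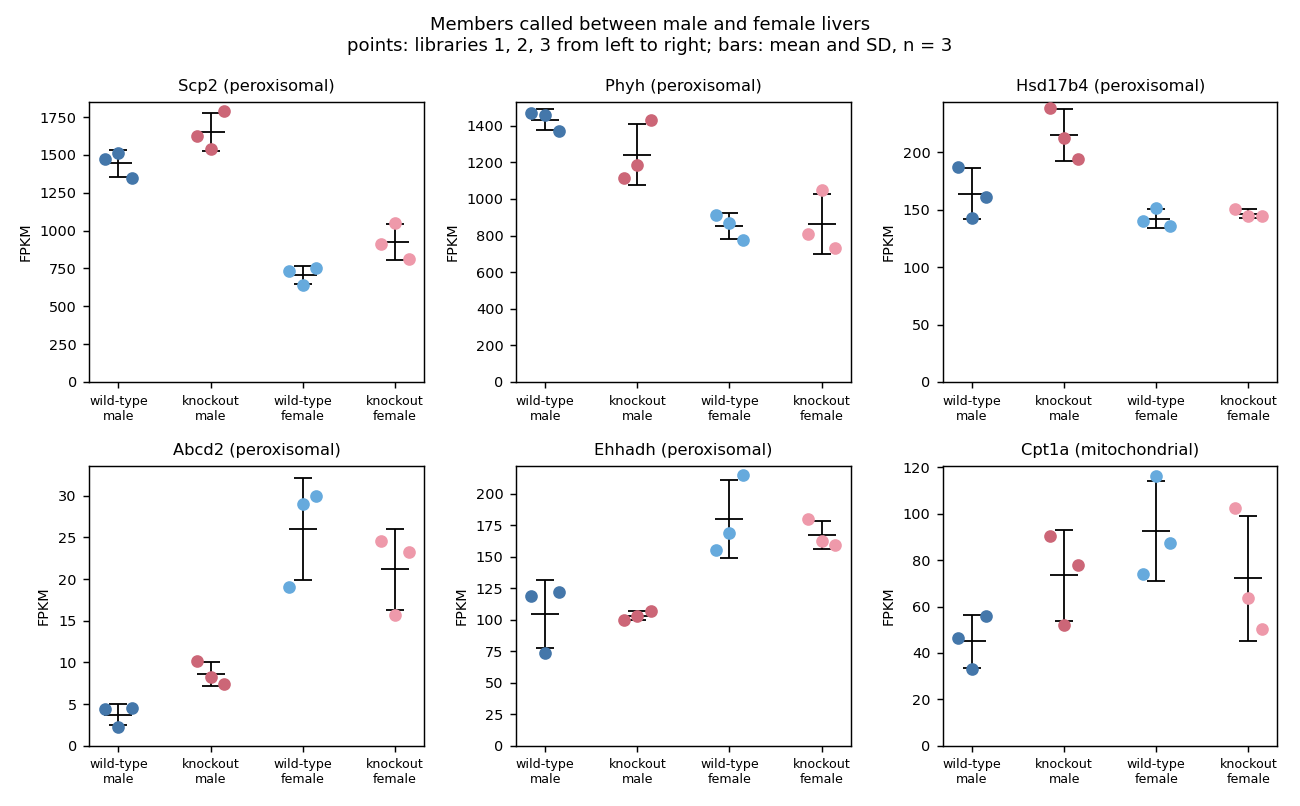
FPKM (vertical axis, from 0) of 6 members called between the sexes in at least 1 genotype, with 1 point per library and bars for the mean and SD of the 3 libraries of each group. Every male library lies above every female library for Scp2 and Phyh, and below for Abcd2 and Ehhadh. Cpt1a is low in wild-type males, at 33.0 to 55.8 FPKM, and overlaps between the other groups.

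Between knockout males and females 4 members were called, all peroxisomal, where 3.67% of all genes were. Scp2 (0.84 ± 0.13 (SE), adjusted p = 0.00312 by limma), Pex11a (1.24 ± 0.25 (SE), adjusted p = 0.0191 by limma) and Hsd17b4 (0.55 ± 0.12 (SE), adjusted p = 0.0294 by limma) were higher in males. Abcd2 was lower (-1.19 ± 0.25 (SE), adjusted p = 0.0212 by limma). None of the 19 mitochondrial members was called, and 1 passed an unadjusted p under 0.05 (Acadm, 0.36 ± 0.12 (SE), adjusted p = 0.134 by limma), against 15.5% of all genes. Cpt1a and Acadl, which were lower in wild-type males, had differences of 0.05 (-0.59 to 0.69) and -0.08 (-0.30 to 0.14) in the knockout. In 7 members males lay wholly above females and in 3 wholly below, against 10.1% and 12.0% of all genes. The median of the members was 0.08 and that of all genes -0.01. Calls depended on single libraries: Abcd2 and Pex11a were called in 8 of the 12 fits that left out 1 library, Hsd17b4 in 5 and Scp2 in 12, and 1 member was called without knockout male 2, 1 without knockout female 3 and 2 without knockout male 1.

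The 2 branches were compared by their median differences. In males the median was 0.26 for the 19 mitochondrial members, with 16 positive, 3 called and 8 wholly above the wild type. It was 0.19 for the 14 peroxisomal members, with 10 positive, 2 called and 6 wholly above. Over all tested genes it was 0.19, with 78.8% positive, 2.55% called and 21.2% wholly above. The library values of mitochondrial minus peroxisomal medians, given below, had a within-group SD of 0.061, averaged over the 4 groups. Wild-type males spread more widely than this average and the other groups less. In males the difference between the medians of the 2 branches was 0.08. In females it was 0.02 (medians 0.02 and 0.00), between the sexes in the wild type -0.10 (medians -0.14 and -0.04) and in the knockout -0.11 (medians 0.08 and 0.18). Taken library by library, as the median deviation of each branch from its gene means, mitochondrial minus peroxisomal members gave -0.22, 0.10 and -0.15 in wild-type males. The other 9 libraries lay between 0.02 and 0.08. The 3 wild-type males thus differed among themselves by more than the other groups did from each other. No separation of the branches by genotype was detectable against that spread: leaving out 1 library moved the difference in males between 0.08 and 0.17, and counting Acad11 and Eci2 as peroxisomal and Crat as mitochondrial gave 0.14. With median-ratio scaling 10 of 19 mitochondrial and 5 of 14 peroxisomal members were positive in males. With quantile normalization 15 of 19 and 9 of 14 were.

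**Figure D5:**
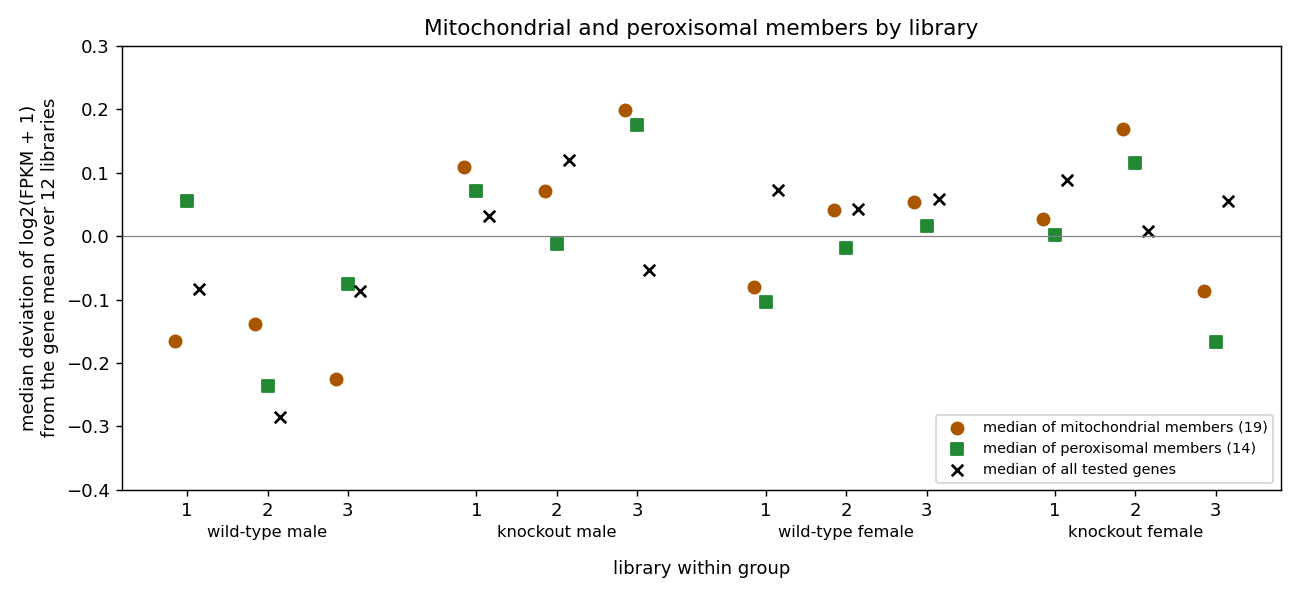
Median deviation of log2(FPKM + 1) from the mean of each gene over the 12 libraries (vertical axis), for the 19 mitochondrial members (circles), the 14 peroxisomal members (squares) and all tested genes (crosses), by library. Wild-type male libraries 1 and 3 have mitochondrial medians 0.22 and 0.15 below the peroxisomal ones, and in the other 10 libraries the mitochondrial median is the higher by 0.02 to 0.10.

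Other genes of the pathway were read from 4 lists. Of 17 regulators, 0 were called between knockout and wild-type males by limma. Ppara, the receptor itself, was at 31.4, 13.8 and 29.8 FPKM in wild-type males, 44, 22.2 and 22.9 FPKM in knockout males, 44.8, 69.9 and 38.8 FPKM in wild-type females and 38.6, 24.5 and 20.8 FPKM in knockout females. It differed by 0.25 ± 0.36 (SE) in males (adjusted p = 0.677 by limma) and -0.85 ± 0.36 (SE) in females (adjusted p = 0.796 by limma), where each knockout lay below each wild-type library. Its coactivator Ppargc1a was at 2.83, 0.73 and 2.76 FPKM in wild-type males, 1.84, 1.82 and 1.05 FPKM in knockout males, 4.05, 3.55 and 3.46 FPKM in wild-type females and 2.78, 1.5 and 2.08 FPKM in knockout females. The differences were -0.20 ± 0.28 (SE) in males and -0.60 ± 0.28 (SE) in females, adjusted p = 0.667 and 0.81 by limma. The smallest p among regulators belonged to the nuclear receptor Hnf4a in males (0.42, adjusted p = 0.133 by limma) and to the coactivator Ppargc1b in females (-0.84, adjusted p = 0.445 by limma). In the wild type 2 of 17 were called lower in males, Ppargc1b (-0.78) and the retinoid receptor Rxrb (-0.41), and in the knockout 0. Over all tested genes the shares called between the sexes were 13.4% in the wild type and 3.67% in the knockout.

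Of 24 tested other mitochondrial acyl-CoA enzymes, 1 was called between knockout and wild-type males: Acat1, the acetoacetyl-CoA thiolase, at 139, 153 and 141 FPKM in wild-type and 214, 246 and 213 FPKM in knockout males (0.63 ± 0.11 (SE), adjusted p = 0.021 by limma). The median of this list was 0.23, with 21 positive. Over all tested genes it was 0.19, with 78.8% positive and 2.55% called. Between the sexes in the wild type 1 was higher in males, the hydroxyacyl-CoA dehydrogenase Hsd17b10 (0.77), and 7 were lower, among them Acot2 (-1.09), Echdc3 (-0.74) and Acad9 (-0.71). In the knockout only Echdc3 was called (-0.59). Of all tested genes 13.4% were called in the wild type (266 higher and 1273 lower in males) and 3.67% in the knockout. Of 26 tested other peroxisomal enzymes 0 were called between knockout and wild-type males, with a median of 0.08. The smallest p there was that of the thioesterase Acot3, at 3.05, 3.60 and 2.88 FPKM in wild-type and 12, 5.68 and 12 FPKM in knockout males (1.32 ± 0.35 (SE), adjusted p = 0.0661 by limma). Its female values were 65.6, 137 and 83.2 FPKM in the wild type and 63.6, 32 and 76.7 FPKM in the knockout.

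Between the sexes in the wild type 3 of these peroxisomal enzymes were higher in males, among them the glycolate oxidase Hao1 (1.13) and the epoxide hydrolase Ephx2 (0.66), and 3 were lower, among them the thioesterases Acot3 (-4.46) and Acot4 (-1.84). Hao1 (0.65) and Acot3 (-2.40) were called in the knockout too. Shares of all tested genes called between the sexes were 13.4% in the wild type and 3.67% in the knockout. Of 14 peroxins, which build peroxisomes, 0 were called between knockout and wild-type males, 13 were positive and the median was 0.27. Over all tested genes the median was 0.19, with 78.8% positive and 2.55% called. On the deposited scale only, the peroxins summed to 237 to 241 FPKM in wild-type males and 274 to 299 FPKM in knockout males. In females they summed to 261 to 283 FPKM in the wild type and 269.8 to 297 FPKM in the knockout. The import factor Pex19 had the smallest p of the peroxins between knockout and wild-type males (0.54, adjusted p = 0.0537 by limma). Pex6 was called lower in males in both genotypes (-0.52 in the wild type and -0.50 in the knockout). In females, 0 genes of the 4 lists were called between knockout and wild type, the smallest p-values being those of Ppargc1b, Ivd (-0.36), Acot3 (-0.74) and Pex16 (0.27).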

How the data were processed

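Poly(A) RNA of mouse liver was sequenced, per the labels' protocols. The authors deposited FPKM values for 18560 genes, per the file headers. TopHat2 and mm10 are named in the submitters' processing notes, and what quantified the genes, the annotation and the depth were not given in the sources used here. Every per-sample column was used (0 left out). Groups follow genotype and sex in the labels. Over the 5092 genes at 5 FPKM or more in all libraries, no 2 libraries shared more than 0.295% identical values, and all 12 were kept.

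A gene was tested if 3 or more libraries had 1 FPKM or more (11514 genes). Values were fitted as log2(FPKM + 1) in limma 3.58.1 (R 4.3.3), with 1 mean per group, moderated variances with a trend, two-sided tests and p-values adjusted by Benjamini and Hochberg's method across every tested gene (called under 0.05). A log2 difference on this scale understates changes of low genes. The script was tested on simulated data. Transcript lengths were matched for 92.4% of genes, and relative depth came from 75 low genes. Coordinates and promoters are RefSeq's for GRCm38.

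Alternatives were a pseudocount of 0.1, no filter, quantile normalization, a stricter filter (mean of 5 FPKM or more), median-ratio scaling, only the groups compared, no trend, array weights, a replicate block, leaving out each library, and another assignment of dual members. Values per sample are given for members called in any comparison and for the 2 members per compartment and comparison with the smallest p; those of Hadha, Hadhb, Acot8 and Crot were added after values were seen. Genes of other lists are named where called (at most 4 per list and comparison), or else by smallest p, and Ppara and Ppargc1a always. Members and lists were chosen with earlier results of these data known.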

Additional observations from a re-analysis of the deposited data

Results flagged for a closer look

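The male minus female difference of Hadha took opposite directions in the 2 genotypes: the 3 wild-type males lay below the 3 wild-type females (-0.20) and the 3 knockout males above the 3 knockout females (0.17). The difference between these effects was 0.36 ± 0.14 (SE) on the log2 scale, with an adjusted p of 0.544 by limma, so it did not pass the test.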

How the results depend on the processing

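All values here are numbers of members called, unless stated. In males (6), a pseudocount of 0.1 gave 8, a mean of at least 5 FPKM 9, no trend of the variance on the mean 4, no filter on low values 3, median-ratio scaling 1, quantile normalization 0, the fit of only the groups compared 0, array weights 0, and leaving out 1 library 0 to 3. In the wild-type sex comparison (9), median-ratio scaling gave 4, quantile normalization 5 and leaving out 1 library 4 to 9; in the knockout sex comparison (4), array weights gave 7 and leaving out 1 library 1 to 6. Correlations of same-numbered deviations showed no pairing by replicate number shared by all groups. Between wild-type and knockout males they were 0.561, 0.114 and -0.268. Between wild-type males and knockout females they were 0.246, 0.485 and 0.084, and between wild-type males and wild-type females -0.128, -0.291 and -0.15. With the replicate number as a block 0 members were called in males, 8 between the sexes in the wild type and 4 in the knockout. Of 2 alternatives chosen after seeing the data, leaving out the 3 libraries holding transcripts of the other sex gave 1, 3 and 1 in these comparisons, and leaving out the 3 libraries poorest in long transcripts gave 1 in males. Removing a length trend, also chosen then, gave 7 in males. Members called in females and in the difference of the effects were 0 in every fit. The mitochondrial minus peroxisomal median changed with single libraries: 0.076 to 0.166 in males, 0.007 to 0.13 in females, -0.072 to 0.207 for the difference of the effects, -0.304 to 0.047 for the wild-type sexes and -0.138 to -0.036 for the knockout sexes. Leaving out the libraries holding transcripts of the other sex, it was 0.093 in females, -0.009 for the difference of the effects and -0.015 for the wild-type sexes. Without those poorest in long transcripts it was 0.167 in males, 0.241 for the difference and -0.304 for the wild-type sexes. The other assignment of the dual members gave 0.141 in males and -0.001 for the wild-type sexes. The cause of these changes was not tested. Absolute depth is unknown, so no counting error was given.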

Other observations

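Ratios of partner genes within a library do not change when the library is scaled by 1 factor. Quantile normalization and the removal of a length trend can change them. Hadha to Hadhb lay between 1.10 and 1.42 in all 12 libraries, with the genotypes overlapping in both sexes. Etfa to Etfb was 0.660 in wild-type male 2 and 0.955 to 1.22 in the other 11 libraries. Acaa1b to Acaa1a had a mean ± SD (n = 3) of 11.9 ± 2.09 in wild-type males and 7.79 ± 2.17 in knockout males, and of 8.54 ± 1.95 in wild-type females and 9.30 ± 1.03 in knockout females. The wild-type and knockout ranges overlapped in females. The spread of members over the 12 libraries was widest for Abcd2 (13.2-fold between the lowest and highest), Pex11a (4.01-fold) and Cpt1a (3.53-fold).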
